A study of Mus musculus with 10 samples.

Results

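The genes described here are the nuclear genes for subunits of the oxidative phosphorylation system, measured in mouse erythroleukemia (MEL) cells. They were chosen by a name rule, with earlier results of these data known. The rule took the genes whose single gene symbol on the array starts with Nduf, Uqcr, Atp5 or Cox followed by a digit of 4 to 8, or is Sdha, Sdhb, Sdhc or Sdhd. This gave 90 of the 18193 genes that have a probe set with 1 symbol, and each was followed through its brightest probe set. Of the 90, 35 belong to complex I, 4 to complex II, 8 to complex III, 17 to complex IV and 17 to complex V. The remaining 9 match by name but code for no subunit: 8 assembly factors (Ndufaf1 to Ndufaf8) and Cox7a2l, which helps to join complexes into supercomplexes.

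Total RNA was hybridised to 10 Affymetrix arrays, 2 for each of 5 lines. FBB1.10, FBB1.7, FBB1.11 and FBB1.5 are MEL subclones with the bacterial biotin ligase BirA and a stably expressed BCL11A that carries a FLAG and biotin tag, and the parental line, MelBirA, has BirA without the tagged protein. BCL11A, a DNA-binding protein with zinc fingers, is known for silencing fetal globin genes. Each subclone is 1 clone of the same kind of construct, so a difference between a subclone and the parental line joins the effect of the tag construct with whatever else sets that clone apart. All 4 subclone comparisons share the same 2 parental arrays. MEL cells are virus-transformed erythroid precursors, and the labels do not tell whether both arrays of a line had a culture of their own, so each p-value rests on how far the arrays of a line differ, and that spread can be purely technical.

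Oxidative phosphorylation moves electrons from NADH and succinate through complexes I to IV of the inner mitochondrial membrane to oxygen, and complex V, the ATP synthase, uses the resulting proton gradient to make ATP. Most subunits are encoded in the nucleus and a few in mitochondrial DNA, and some complex IV subunits exist as paired isoforms, one general and one found mainly in muscle, lung or testis. Erythroid precursors still hold mitochondria, which they need for heme synthesis and lose when they mature to red cells.

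Array medians lay between 29.58 and 31.59 intensity units and differed by 0.0623 on the log2 scale. A probe set was tested if it lay above the median of the whole table, 30.52, on at least 2 arrays, which left 25061 probe sets naming 12502 genes. Of the 9 erythroid markers on the array, 8 lay above that median on all 10 arrays, and the red cell anion exchanger gene Slc4a1 on none. The summed erythroid markers spanned 7235 to 8694 on tagged arrays and 7537 to 8272 on parental arrays. Summed mast cell markers, nearly all of it the protease gene Mcpt2, spanned 765 to 5702 on tagged arrays and 5108 to 6175 on parental arrays. Mcpt2 averaged 673 in FBB1.7, its lowest, and 5453 in the parental line. Macrophage markers summed to 454 to 548 on tagged and 471 to 516 on parental arrays, lymphoid markers to 46.3 to 78.1 on tagged and 56.1 to 59.6 on parental arrays, striated muscle markers to 120 to 244 on tagged and 141 to 164 on parental arrays, and germ cell markers to 39.9 to 57.8 on tagged and 36.4 to 42.3 on parental arrays. What part these other markers have in the results was not tested. Of 7 Bcl11a probe sets, 1 lay higher on all 8 tagged arrays, at 62.1 to 245, than on the parental arrays, at 35.9 and 39.7. The actin 3′ to 5′ probe ratio, which grows as RNA is shortened, was 1.47 on array 1 of FBB1.5, 1.80 on parental array 2 and 1.06 to 1.22 on the others.

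Of the 90 genes, 88 passed the intensity filter, and 86 lay above the table median on all 10 arrays. They are bright: 59 of the 88 tested had a mean above 1000 intensity units, against 612 of all 12502 tested genes. The 2 below the filter were Cox8b, a muscle form of a complex IV subunit, at 2.13 to 13.6 on tagged arrays and 11.2 and 15.8 on parental arrays, and Cox7c, another complex IV subunit, at 2.58 to 8.48 on tagged arrays and 1.42 and 6.88 on parental arrays. Cox7c is represented only by a dim probe set among those with 1 symbol, so these values say little about the transcript. Bright probe sets vary less between arrays: the median standard deviation within lines was 0.08 on the log2 scale for the members and 0.13 over all tested genes. Because small differences pass more easily where the spread is small, the counts over the members are set against the shares among all tested genes and among the 553 other genes above 1000. The limit of 1000 was chosen after values had been seen.

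The median subunit gene differed from the parental line by 0.07 (FBB1.10) to 0.14 (FBB1.7) on the log2 scale over the 4 subclones, and quantile normalization turned the sign in FBB1.10. Over the other genes above 1000 the median was 0.05 (FBB1.5) to 0.07 (FBB1.7). The most calls were in FBB1.7, where ATP synthase genes had the smallest p-values. Atp5a1, which codes for the alpha subunit of the catalytic head of the ATP synthase, gave intensities of 6056 and 6080 in FBB1.10, 6746 and 6461 in FBB1.7, 5597 and 5051 in FBB1.11, 5131 and 5270 in FBB1.5, and 4378 and 4157 in the parental line. All 8 tagged arrays lay above both parental arrays, and FBB1.7 was highest. Atp5a1 was the only member that passed in all 4 subclones, by limma with Benjamini-Hochberg adjustment over all tested probe sets at 0.05. On the scale of log2(intensity + 16), its difference from parental was 0.63 in FBB1.7 (adjusted p = 1.5e-05), 0.51 in FBB1.10 (adjusted p = 0.00031), 0.32 in FBB1.11 (adjusted p = 0.030) and 0.28 in FBB1.5 (adjusted p = 0.014), each with a standard error of 0.055. The call in FBB1.11 was lost without parental array 2, either array of FBB1.7 or array 1 of FBB1.11. The call in FBB1.5 was lost without parental array 2 or either array of FBB1.5. Atp5a1 has other tested probe sets on the array. One of them, with a mean of 2082, was higher by 0.23 in FBB1.7 (adjusted p = 0.037) and differed by 0.25 in FBB1.10 (adjusted p = 0.065). On it FBB1.10 and not FBB1.7 was highest. Its mean was 2019 in FBB1.11 and 2095 in FBB1.5 against 1869 in the parental line, smaller folds than on the brightest probe set.

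**Figure D1:**
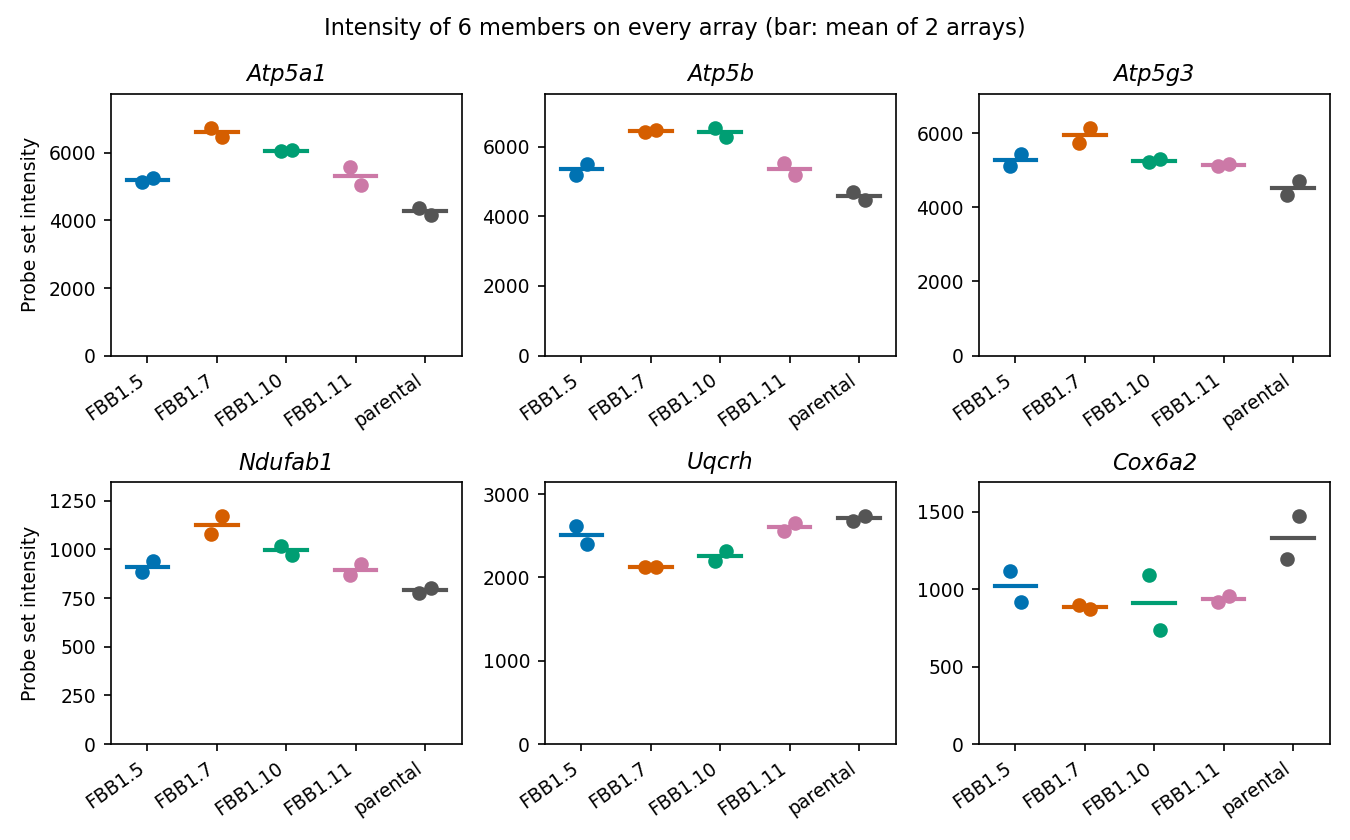
Probe set intensity (linear, from 0) of 6 members on each of the 10 arrays, by line, with FBB subclones left of the parental line; points are arrays and bars the mean of 2 arrays. Atp5a1 spans 5051 to 6746 on tagged arrays and 4157 to 4378 on parental arrays, and Uqcrh and Cox6a2 lie lower on all 8 tagged arrays than on both parental arrays.

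Atp5b codes for the beta subunit, which with alpha forms the catalytic sites of the ATP synthase. Its intensities were 6546 and 6281 in FBB1.10, 6426 and 6471 in FBB1.7, 5538 and 5195 in FBB1.11, 5186 and 5516 in FBB1.5, and 4711 and 4482 in the parental line. Again every tagged array lay above both parental arrays. Atp5b rose by 0.22 in FBB1.5 (adjusted p = 0.042), 0.49 in FBB1.7 (adjusted p = 6.9e-05) and 0.48 in FBB1.10 (adjusted p = 0.00031), while in FBB1.11 the difference was 0.22 (adjusted p = 0.098), with a standard error of 0.052 throughout. The call in FBB1.5 held in only 1 of the 10 fits that left out 1 array. Averaged over the 4 subclones, the difference was 0.43 ± 0.043 (SE) for Atp5a1 (adjusted p = 0.00021) and 0.35 ± 0.041 for Atp5b (adjusted p = 0.00056).

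The stretch before the start of a gene is where transcription factors of the respiratory genes are known to bind, among them NRF1, the ETS family factor GABP and NF-Y at CCAAT boxes. The 250 bases upstream of the annotated start are shown for 3 members: Atp5b, which rose in 3 subclones, Cox6a1, a general complex IV subunit whose window holds all 3 motifs, and Uqcrh, the complex III hinge subunit, which fell in FBB1.7. Sequences are from RefSeq (GRCm38.p6), 5′ to 3′ on the gene's strand, with matches on either strand in capitals: for NRF1 the letters GCGCA, any 1 base and GCGC, for ETS factors CCGGAAG, and CCAAT. Atp5b lies at chr10:128083057-128083306 (+ strand), Cox6a1 at chr5:115348959-115349208 (- strand) and Uqcrh at chr4:116075071-116075320 (- strand).
Atp5b: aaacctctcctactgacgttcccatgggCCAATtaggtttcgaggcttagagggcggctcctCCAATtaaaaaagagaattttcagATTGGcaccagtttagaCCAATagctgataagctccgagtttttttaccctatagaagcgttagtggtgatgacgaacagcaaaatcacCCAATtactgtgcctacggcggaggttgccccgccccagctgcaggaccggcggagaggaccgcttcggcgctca
Cox6a1: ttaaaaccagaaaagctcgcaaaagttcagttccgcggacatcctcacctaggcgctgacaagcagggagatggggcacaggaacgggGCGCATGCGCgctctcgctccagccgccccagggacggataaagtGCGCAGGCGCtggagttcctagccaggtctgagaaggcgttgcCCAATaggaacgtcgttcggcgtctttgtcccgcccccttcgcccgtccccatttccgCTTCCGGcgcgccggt
Uqcrh: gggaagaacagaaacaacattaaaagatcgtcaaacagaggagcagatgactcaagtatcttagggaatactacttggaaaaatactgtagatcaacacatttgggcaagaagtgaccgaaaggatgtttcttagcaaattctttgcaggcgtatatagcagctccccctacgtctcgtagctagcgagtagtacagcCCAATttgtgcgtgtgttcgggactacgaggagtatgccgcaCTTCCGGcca
The Atp5b window holds 5 CCAAT matches, which begin 222, 188, 164, 147 and 75 bases before the start, and no match to the other motifs. The Cox6a1 window holds 2 NRF1 matches at 162 and 117 bases, a CCAAT match at 74 and an ETS match at 16 bases before the start. The Uqcrh window holds a CCAAT match at 52 and an ETS match at 10 bases. Windows were found for 74 of the 90 genes (79 windows, as some genes have more than 1 start). The NRF1 letters occurred in 13 of these 79 windows and in 3.74% of all 32851 windows of this length in the table, the ETS letters in 14 and in 6.91%, and the CCAAT letters in 33 and in 33.8%. Among the genes called in FBB1.7, 1 of 26 held an NRF1 match, 7 an ETS match and 12 a CCAAT match, against 11, 7 and 20 of the 48 genes not called. These 48 include Cox7c and Cox8b, which were below the filter and not tested, and whose windows hold none of the motifs. A match is a run of letters and does not show that a factor binds there.

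With the line as a random block, which asks whether tagged lines as a class differ from the parental line, 0 of the 88 members passed (limma with duplicateCorrelation), the smallest adjusted p was 0.32 and 21 had an unadjusted p under 0.05. So did 1044 of all 12502 tested genes and 134 of the 553 other bright genes. The 21 members were 20 of the 59 above 1000 units and 1 of the 29 at or below 1000. Of the 11861 other genes at or below 1000, 889 had such a p. Over all genes the share that passed was 0 percent as well. The fit of 5 line means compares these particular lines and says nothing of further clones. In it 14 members passed for the mean of the 4 subclones, 12 higher and 2 lower, or 15.9% of the members. Of all tested genes 3.77% passed (1.82% higher and 1.95% lower), and of the 553 other genes above 1000 units 23.3% passed (18.4% higher and 4.88% lower). Of the 59 members above 1000, 13 passed (22.0%), a share near that of other bright genes. Quantile normalization gave a split of 4 higher to 4 lower for this mean, and median centring of the arrays one of 6 higher to 3 lower. Leaving out 1 array gave 5 to 13 calls, with the fewest without parental array 1.

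FBB1.7 was the subclone in which most members passed. There 28 members were higher and 4 lower than in the parental line, 36.4% of the 88. The share among all tested genes was 10.7% (4.29% higher and 6.39% lower). Among the other genes above 1000 it was 38.7% (26.9% higher and 11.8% lower), while of the 59 members above 1000, 27 passed (45.8%), 23 higher and 4 lower. The median difference over the members was 0.14, against -0.02 over all genes and 0.07 over the other bright genes. All of the called differences were below 1 on the log2 scale, and 3 members differed by more than 0.5. Of the 28 higher members, 25 had their highest level of the 5 lines in FBB1.7. Choosing members called higher in this line favours that outcome, and its share among other genes was not counted. Calls on 7 members stood whichever array was left out: Atp5a1, Atp5b, Atp5g3, Atp5l, Atp5md, Ndufab1 and Uqcrh. The count fell to 10 without either array of FBB1.7, to 15 without parental array 1 and to 3 when the variance was fitted without its trend on intensity. Quantile normalization gave 16 higher and 8 lower, and no called member turned its sign under either other scaling.

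**Figure D2:**
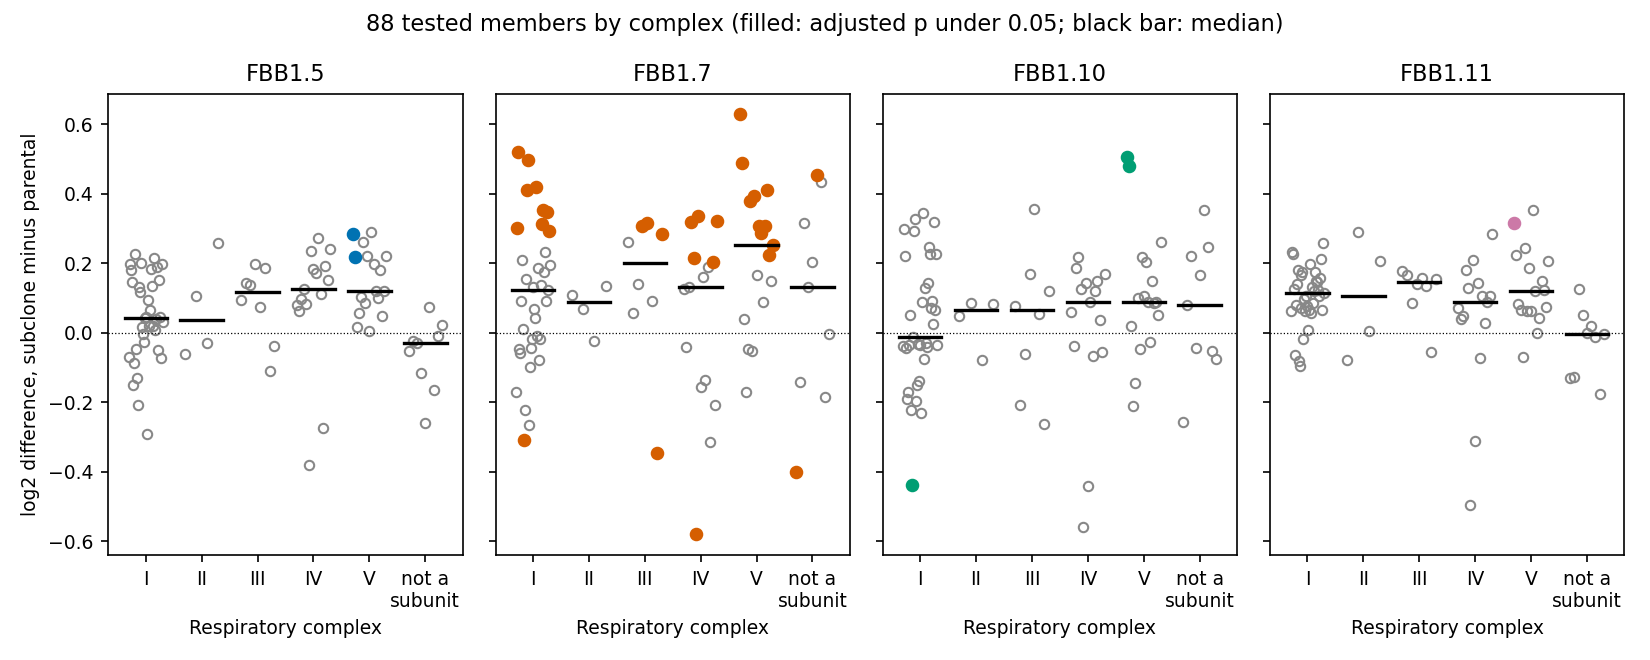
Difference from the parental line (subclone minus parental, log2 scale) of the 88 tested members, by complex, in each of the 4 subclones; filled points had an adjusted p under 0.05, open points did not, and black bars are medians. FBB1.7 holds 32 filled points, 10 of them in complex V, against 2 in FBB1.5, 3 in FBB1.10 and 1 in FBB1.11.

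In the other 3 subclones few members passed. In FBB1.5 they were Atp5a1 and Atp5b, 2.27% of the members, where 2.38% of all genes and 11.9% of the other bright genes passed. In FBB1.10 they were Atp5a1 and Atp5b, both higher, and Ndufa7, lower, 3.41% of the members against 1.81% of all genes and 14.1% of the other bright genes. Quantile normalization turned the FBB1.10 split to 2 higher and 3 lower. In FBB1.11 the call was Atp5a1 alone, 1.14% of the members against 0.184% of all genes and 0.904% of the other bright genes. The median difference of the 88 was 0.11 in FBB1.11 (0.00 over all genes), 0.08 in FBB1.5 (0.01 over all genes) and 0.07 in FBB1.10 (0.00 over all genes), where quantile normalization turned it to -0.02. Over the other bright genes the median was 0.06 in FBB1.11, 0.05 in FBB1.5 and 0.07 in FBB1.10.

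Within the ATP synthase, 10 of 17 genes rose in FBB1.7 and none fell (58.8% passed, against 38.7% of other bright genes), with a median difference of 0.25. All 17 are above 1000 units. The count was 5 without array 2 of FBB1.7 and 7 without its array 1, and 8 to 10 without any 1 of the other arrays. Beside Atp5a1 and Atp5b they were Atp5g1 and Atp5g3, both coding for the membrane ring subunit c, Atp5j, Atp5j2, Atp5l, Atp5md, Atp5mpl and Atp5pb, which code for parts of the stalk and the membrane sector. Atp5g3 gave 5211 and 5314 in FBB1.10, 5743 and 6149 in FBB1.7, 5114 and 5180 in FBB1.11, 5106 and 5428 in FBB1.5, and 4342 and 4700.3 in the parental line. Its tagged and parental arrays did not overlap, and it rose by 0.39 ± 0.055 (SE) in FBB1.7 (adjusted p = 0.00042) and by 0.26 ± 0.043 for the mean of the 4 (adjusted p = 0.0057). Atp5md, which codes for a small membrane subunit, gave 3724 and 3902 in FBB1.7 and 2732 and 2996 in the parental line. It rose by 0.41 ± 0.067 (adjusted p = 0.0015). The other 6 rose by 0.22 (Atp5mpl) to 0.38 (Atp5g1).

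The ring subunit c is made from 3 genes that code for the same mature protein, of which Atp5g2 did not pass. It gave 3818 and 3548 in FBB1.7 and 3882 and 3747 in the parental line, a difference of -0.05 ± 0.056 (adjusted p = 0.64). Nor did the whole catalytic head pass: of its 5 genes Atp5a1 and Atp5b rose in FBB1.7, while Atp5c1 differed by 0.04, Atp5d by -0.17 and Atp5e by -0.05 without passing. For the mean of the 4 subclones 7 complex V genes passed, all higher: Atp5a1, Atp5b, Atp5g3, Atp5j, Atp5j2, Atp5md and Atp5pb. Leaving out 1 array gave 4 to 6 complex V calls. Atp5j2 kept its call in 0, and Atp5md and Atp5pb each in 2, of the 10 such fits.

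Complex I takes electrons from NADH. In FBB1.7, 9 of its 35 genes rose and 1 fell (28.6%, against 10.7% of all genes and 38.7% of other bright genes; 20 of the 35 are above 1000 units), and the median difference was 0.12. Only 1 rise was called without parental array 1 and 2 without either array of FBB1.7. Ndufab1, the mitochondrial acyl carrier protein that is also a complex I subunit, gave 1020 and 973 in FBB1.10, 1077 and 1170 in FBB1.7, 868 and 923 in FBB1.11, 884 and 940.0 in FBB1.5, and 777 and 803 in the parental line. Every tagged array lay above both parental arrays, and the difference was 0.50 ± 0.082 in FBB1.7 (adjusted p = 0.0016) and 0.30 ± 0.065 for the mean of the 4 (adjusted p = 0.021). On a dimmer probe set of Ndufab1, with a mean of 324, 6 tagged arrays lay above both parental arrays and 1 lay below both. Ndufa12, an accessory subunit, gave 1808 and 1586 in FBB1.7 and 1035 and 1336 in the parental line, a rise of 0.52 ± 0.11 (adjusted p = 0.0080) that was lost without parental array 1 or array 1 of FBB1.7. The other risers were Ndufa9, Ndufa10, Ndufb6, Ndufs1, Ndufs3, Ndufs8 and Ndufv2, by 0.29 to 0.42.

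Grouped by structure after the values had been seen, 4 of the 6 measured core subunits, which carry the electron path, rose in FBB1.7 (Ndufs1, Ndufs3, Ndufs8 and Ndufv2, median of the 6 differences 0.30), as did 5 of the other 29 complex I genes (median 0.07). The difference between these groups was not tested, and 0 of the 6 core genes passed without parental array 1 or without either array of FBB1.7. Ndufa6, an accessory subunit, fell by 0.31 ± 0.083 in FBB1.7 (adjusted p = 0.029), at 1644 and 1750 against 2241 and 1973 in the parental line. Ndufa7, another accessory subunit, fell by 0.44 ± 0.089 in FBB1.10 (adjusted p = 0.023), at 1649 and 1866 against 2359 and 2401 in the parental line. The FBB1.10 call was lost without parental array 2 or array 1 of FBB1.10. On this probe set all 8 tagged arrays lay below both parental arrays, but on a dimmer one both arrays of FBB1.5 and of FBB1.11 lay above them. The 2 brightest complex I genes, Ndufb9 and Ndufb11, differed from parental by -0.08 to 0.14 and by -0.04 to 0.06 over the 4 subclones and passed in none. Ndufb4 and Ndufb1 were dim, with 21.7 to 36.6 and 50.3 to 70.3 over the 10 arrays. Ndufa4l2, counted here by its name although it is an isoform of the complex IV gene Ndufa4, was dim too, at 56.3 to 86.4.

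Complex II, which oxidises succinate and belongs to the citric acid cycle as well, had no call in any subclone. Sdhb, its iron-sulfur subunit, gave 2605 and 2638 in FBB1.11 and 2004 and 2284 in the parental line, a difference of 0.29 ± 0.079 (adjusted p = 0.15). Sdhd, a membrane anchor, gave 1321 and 1142 in FBB1.5 and 1081 and 969 in the parental line, a difference of 0.26 ± 0.086 (adjusted p = 0.16). With 4 genes, medians have little weight, and they ran from 0.04 in FBB1.5 to 0.11 in FBB1.11.

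Complex III hands electrons to cytochrome c. In FBB1.7, 3 of its 8 genes rose and 1 fell, all 8 being above 1000 units (50.0% passed, against 38.7% of other bright genes). None of the rises was called without either array of FBB1.7, and 1 without parental array 1. The core genes rose, Uqcrc1 by 0.31 ± 0.072 (adjusted p = 0.015) and Uqcrc2 by 0.32 ± 0.088 (adjusted p = 0.035), and Uqcrq by 0.28 ± 0.075 (adjusted p = 0.026). Uqcrq has 3 dimmer probe sets, which differed by -0.14 to 0.14 there and did not pass. Uqcrh, whose promoter is shown above, went the other way. It gave 2194 and 2317 in FBB1.10, 2131 and 2121 in FBB1.7, 2558 and 2657 in FBB1.11, 2618 and 2397 in FBB1.5, and 2680.0 and 2735 in the parental line. All 8 tagged arrays lay below both parental arrays, with FBB1.7 and FBB1.10 furthest down. It fell by 0.35 ± 0.064 in FBB1.7 (adjusted p = 0.0033), and in FBB1.10 the difference was -0.26 (adjusted p = 0.051). Uqcrb, the brightest complex III gene, differed by -0.06 to 0.14 and passed in no subclone.

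Complex IV reduces oxygen to water. Of its 15 tested genes 5 rose and 1 fell in FBB1.7 (40.0%, against 10.7% of all genes and 38.7% of other bright genes; 10 of the 15 are above 1000 units), with a median of 0.13. Without array 1 of FBB1.7 none of the rises was called, and without its array 2 or parental array 1 there were 2. The risers were the general forms Cox5b, Cox6a1, Cox6b1 and Cox8a, and Ndufa4, first assigned to complex I and now to complex IV. Cox6b1 gave 5511 and 5251 in FBB1.7 and 4036 and 4492 in the parental line, a rise of 0.34 ± 0.064 (adjusted p = 0.0040). Cox5b gave 4926 and 4528 in FBB1.7 and 3529 and 4058 in the parental line, a rise of 0.32 ± 0.070 (adjusted p = 0.0095). Cox6a1 rose by 0.21, Cox8a by 0.20 and Ndufa4 by 0.32. The brightest genes, Cox4i1 and Cox6c, lay above both parental arrays on all 8 tagged arrays but differed by 0.06 to 0.13 and 0.09 to 0.17 and passed in no subclone. On a dimmer probe set of Cox6c, with a mean of 2387, 0 tagged arrays lay above both parental arrays and 3 lay below both.

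The gene that fell in complex IV was Cox6a2, the form known from heart and skeletal muscle. It gave 1089 and 735 in FBB1.10, 895 and 868 in FBB1.7, 914 and 957 in FBB1.11, 1118 and 919 in FBB1.5, and 1195 and 1470.2 in the parental line. All 8 tagged arrays lay below both parental arrays, although the nearest tagged and parental arrays were 1118 and 1195. It fell by 0.58 ± 0.15 in FBB1.7 (adjusted p = 0.021) and by 0.50 ± 0.12 for the mean of the 4 (adjusted p = 0.028), and the FBB1.7 call was lost without parental array 2 or either array of FBB1.7. The call for the mean was lost without parental array 2, array 2 of FBB1.5 or FBB1.7, or array 1 of FBB1.11. The other isoforms of restricted tissues were dimmer and passed against parental in no subclone. Over the 10 arrays the lung form Cox4i2 spanned 132 to 151, the testis form Cox6b2 46.6 to 91.2, the muscle form Cox7a1 44.7 to 68.5, and Cox8c 286 to 404, while the testis form Cox7b2 lay above the table median on 4 arrays. The muscle markers Actc1 and Myh6 lay above the table median on 0 of the 10 arrays, Tnnt2 on 9 and Ckm on 10. The germ cell markers Ddx4 and Tnp1 did so on 0 arrays and Prm1 on 7.

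Among the 9 genes that are no subunits, Cox7a2l gave 1486 and 1504 in FBB1.7 and 2010 and 1944 in the parental line. It fell by 0.40 ± 0.087 (adjusted p = 0.0092). Ndufaf5, an assembly factor of complex I, gave 121 and 124 in FBB1.7 and 85.3 and 84.9 in the parental line and rose by 0.45 ± 0.13 (adjusted p = 0.040), a call kept in 2 of the 10 fits that left out 1 array. The other 7 passed against parental in no subclone.

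A member's other probe sets give a second reading of the same transcript. Of the 32 members called in FBB1.7, 18 have further tested probe sets with 1 symbol, 32 in all. Of these, 30 had the sign of the brightest one, 16 passed with that sign and 0 passed with the opposite sign. The 2 with the other sign were probe sets of Ndufa10, at -0.24 (adjusted p = 0.49), and Uqcrq.

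The 4 subclones differed from each other in 7 members by the moderated F test, 7.95% of the 88, where 8.06% of all genes and 36.7% of the other bright genes passed. Of the 59 members above 1000, 5 passed (8.47%). The genes were Atp5a1 (adjusted p = 0.0026), Atp5b (0.0029), Atp5md (0.026), Uqcrh (0.026), Atp5l (0.031), Cox6b2 (0.043) and Ndufaf4 (0.044). In the ATP synthase genes the high lines were FBB1.7 and, for Atp5a1 and Atp5b, FBB1.10. Atp5l, a membrane sector subunit, gave 4114 and 4033 in FBB1.7, with the other 6 tagged arrays at 3271 to 3692 and the parental line at 3248 and 3330.0. Cox6b2 was highest in FBB1.5, at 80.0 and 91.2, and lowest in FBB1.10, at 46.6 and 53.2, with the parental line at 66.2 and 81.2. Ndufaf4, an assembly factor of complex I, was lowest in FBB1.5, at 188 and 208, against 227 to 290.5 on the other tagged arrays and 233 and 247 in the parental line. Leaving out 1 array gave 2 to 17 calls, and Atp5a1 and Atp5b were called in all 10 such fits.

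By rank over the arrays, 20 of the 88 members lay higher on all 8 tagged arrays than on both parental arrays (22.7%), and 3 lay lower (3.41%), namely Cox6a2, Ndufa7 and Uqcrh. Of all tested genes 5.14% lay higher and 5.02% lower in this way, and of the other genes above 1000 units 16.5% and 3.07%. The members' mean deviation from each gene's own average over the 10 arrays shows how much rests on single arrays. It was 0.04 and 0.07 in FBB1.7, 0.02 and -0.01 in FBB1.5, -0.04 and 0.00 in FBB1.10, 0.01 and 0.04 in FBB1.11, and -0.11 and -0.02 in the parental line. Parental array 1 was thus the lowest of all, and parental array 2, which had the highest actin ratio, lay above array 1 of FBB1.10. In the other bright genes the tagged arrays spanned -0.00 to 0.03 and the parental arrays gave -0.08 and -0.02. With parental array 2 and array 1 of FBB1.5 both left out, a choice made after the data had been seen, 33 members passed in FBB1.7 (30 higher, 3 lower) and 14 for the mean of the 4. In RNA of whole cultures, more cells of a kind and more RNA per cell cannot be told apart.

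**Figure D3:**
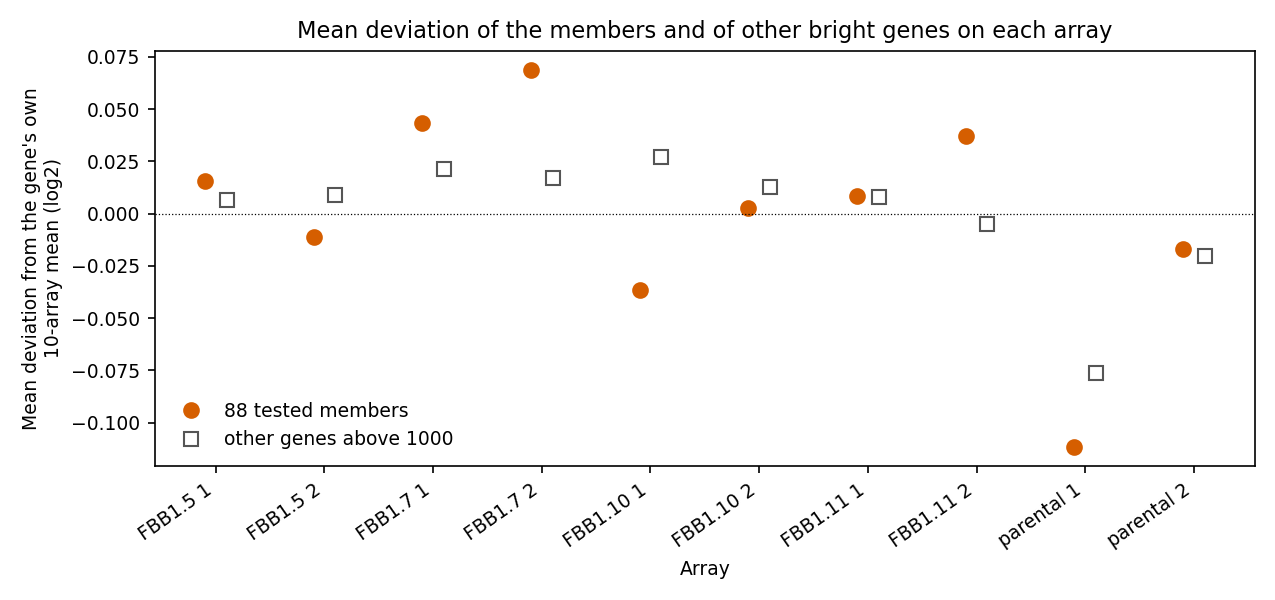
Mean deviation (log2 scale) of the 88 tested members (filled circles) and of 553 other genes above 1000 (open squares) from each gene's own mean over the 10 arrays, with the 8 tagged arrays left of the 2 parental arrays. The members lie between -0.04 and 0.07 on tagged arrays and at -0.11 and -0.02 on parental arrays 1 and 2.

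**Figure D4:**
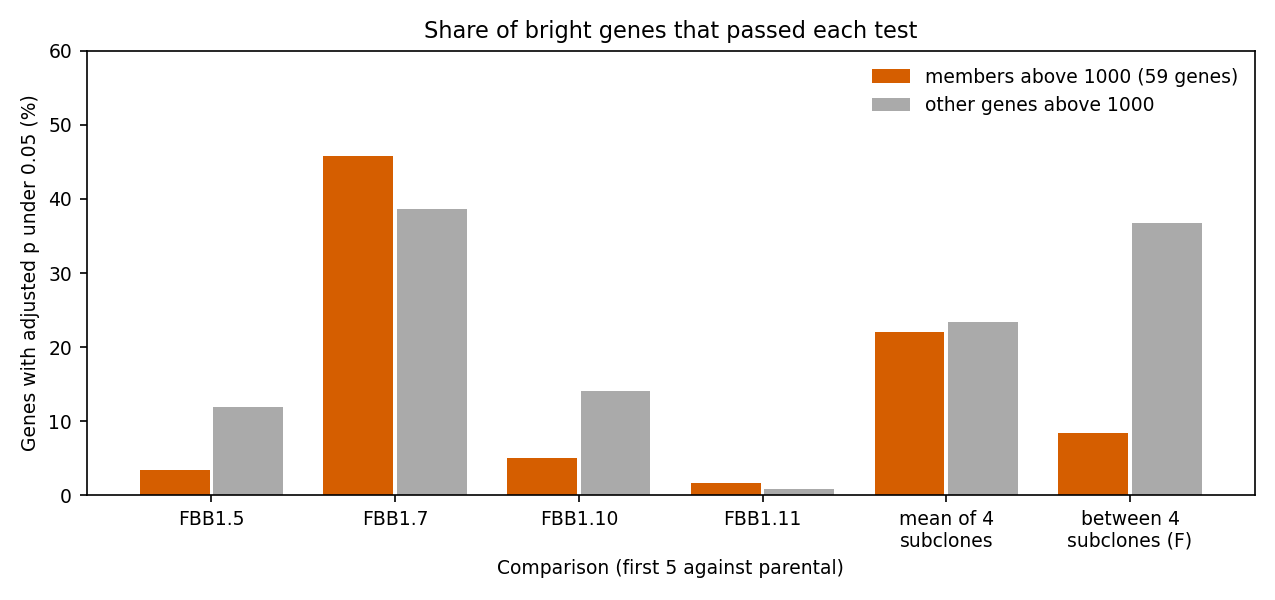
Share of genes (percent, bars from 0) with an adjusted p under 0.05 in each comparison, for the 59 members above 1000 and the 553 other genes above 1000. In FBB1.7 the shares were 45.8% and 38.7%, and between the 4 subclones 8.47% and 36.7%.

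Genes around the respiratory chain were read from lists outside the name rule, to be set against the 10.7% of all genes (4.29% higher) and the 38.7% of other bright genes that passed in FBB1.7. Of 14 tested genes for electron carriers and metabolite transport, 4 rose in FBB1.7 and none fell (28.6%, 10 of the 14 above 1000 units, median 0.11), with 2 called without array 2 of FBB1.7. They were Cycs, which codes for cytochrome c, by 0.42 ± 0.075 (adjusted p = 0.0028), Etfa, an electron transfer flavoprotein, by 0.41 ± 0.086 (adjusted p = 0.0076), Cyc1, the cytochrome c1 of complex III, by 0.34 ± 0.085 (adjusted p = 0.020), and the ADP/ATP carrier Slc25a5 by 0.33 ± 0.054 (adjusted p = 0.0015). Slc25a5 gave 5290.0 and 4993 in FBB1.10, 5037 and 5108 in FBB1.7, 4465 and 4432 in FBB1.11, 4146 and 4543 in FBB1.5, and 4016 and 4046 in the parental line. It rose in FBB1.10 as well (0.35, adjusted p = 0.0047), the 2 lines in which Atp5a1 and Atp5b were highest.

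In the citric acid cycle and the pyruvate dehydrogenase complex, 4 of 15 genes rose in FBB1.7 and 1 fell (33.3%, 8 of the 15 above 1000 units, median 0.21). Without parental array 1 or array 2 of FBB1.7, 1 rise was called, and without array 1 of FBB1.7 or either array of FBB1.11, 2. Malate dehydrogenase, Mdh2, gave 3479 and 3743 in FBB1.7 and 2677 and 2815 in the parental line and rose by 0.39 ± 0.060 (adjusted p = 0.00085), and it rose in FBB1.10 by 0.35 (adjusted p = 0.0084). The fall was in Pdha1, a pyruvate dehydrogenase subunit, by 0.29 ± 0.066 (adjusted p = 0.013). FBB1.5 differed in other genes: citrate synthase, Cs, gave 971 and 803 there and 1269 and 1453 in the parental line and fell by 0.61 ± 0.096 (adjusted p = 0.0041). Pdhb rose there by 0.72 ± 0.077 (adjusted p = 0.00027) and Sucla2 by 0.46 ± 0.097 (adjusted p = 0.025), as did Vdac2, an outer membrane channel of the list before, by 1.09 ± 0.072 (adjusted p = 5.3e-06). Pdhb, Sucla2 and Vdac2 lie on chromosome 14, on which none of the 90 members lies.

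Of 76 tested genes for proteins of the mitochondrial ribosome, which translates the subunits encoded in mitochondrial DNA, 13 rose in FBB1.7 and none fell (17.1%, 9 of the 76 above 1000 units), with a median of 0.13. The count was 3 without array 1 and 2 without array 2 of FBB1.7. Mrps5 gave 298 and 319.8 in FBB1.7 and 196 and 171 in the parental line and rose by 0.70 ± 0.12 (adjusted p = 0.0015). In FBB1.10, Mrps5 and Mrpl9 rose, and in FBB1.5 and FBB1.11 no gene of the list passed. Of 38 tested assembly factors outside the name rule, 1 rose and 1 fell in FBB1.7 (5.26%, median 0.03), and neither was called without either array of FBB1.7. Coa7, an assembly factor of complex IV, gave 90.0 and 99.1 there against 40.5 and 46.2 in the parental line, a rise of 0.90 ± 0.20 (adjusted p = 0.011), while Coa5 fell by 0.55 ± 0.15 (adjusted p = 0.028).

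Of 16 tested regulators of mitochondrial genes, 0 rose and 2 fell in FBB1.7 by limma (12.5%, near the 10.7% of all genes), with a median of -0.11. An unadjusted p under 0.05 was found for 7 of the 16 and for 3131 of all 12502 genes. Esrra, the nuclear receptor that binds many respiratory gene promoters, gave 159 and 158 in FBB1.10, 124 and 121 in FBB1.7, 146 and 166 in FBB1.11, 184 and 244 in FBB1.5, and 194 and 223 in the parental line. It fell by 0.69 ± 0.14 in FBB1.7 (adjusted p = 0.0047). This call stood whichever array was left out. Pprc1, a coactivator of the PGC-1 family, fell there by 0.34 ± 0.097 (adjusted p = 0.037), a call kept in 5 of the 10 such fits. Polrmt, the RNA polymerase of mitochondria, fell by 0.59 ± 0.14 in FBB1.10 (adjusted p = 0.040) and by 0.56 ± 0.14 in FBB1.5 (adjusted p = 0.047). Atf4, a stress response factor, rose in the same 2 lines by 0.43 each, and Myc rose by 0.47 ± 0.10 in FBB1.5 (adjusted p = 0.027). Of the 10 fits that left out 1 array, Polrmt kept its call in 5 for FBB1.10 and in 3 for FBB1.5, Atf4 in 1 and in 5, and Myc in 7.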

How the data were processed

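RNA was labelled through oligo-dT primed cDNA and biotinylated cRNA, per the labels' protocols. The authors deposited linear probe set intensity values. Their summary and scaling steps are not given in any source used here. Of 45101 probe sets, 64 were controls and stayed out of all tests. The scale is log2(intensity + 16), which understates folds of dim genes, without further normalization.

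Symbols come from the platform annotation (34958 probe sets with 1, 932 with several, 9211 with none). The 90 members have 179 probe sets, and 10 probe sets with several matching symbols were left out. All 90 matched a RefSeq gene (GRCm38.p6).

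Tests used limma 3.58.1 in R 4.3.3 with statmod 1.5.0: line means of 5 lines, eBayes with an intensity trend (5 residual and 9.92 prior degrees of freedom), and a moderated F test of 3 contrasts between subclones. Tagged against parental was also fitted with line as a random block (consensus correlation 0.211). In data simulated for FBB1.5 against parental over 25061 probe sets, 99 of 100 changes of 1 on the log2 scale and 57 of 100 changes of 0.5 were recovered, with 7 false calls. Each simulated probe set had normal noise with the typical spread at its intensity. Differences in spread between genes of like intensity were left out, so the real data may be harder than the simulated data. The number of arrays, 2 per line, limits the precision. Figures were drawn with matplotlib 3.10.9 in Python 3.11.15.

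Members and lists were chosen with earlier results of these data known. The rule for named genes took Atp5a1, the 2 brightest members of each complex, up to 30 members that passed in a comparison, the 3 members with the smallest p in each, members below the filter, paralogous isoforms, and, of each list outside, the 3 with the smallest p for the mean and up to 4 that passed per subclone. Ndufs1, Ndufaf4, Ndufaf5, Atp5c1, Atp5d, Atp5e and the members listed only for lying low (Ndufb1, Ndufb4) were named after their values were seen. Alternatives covered the pseudocount (1 or 64), quantile normalization, median centring, the filter, the variance model, the probe set taken, the replicate number as a block, and each array left out.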

Additional observations from a re-analysis of the deposited data

Results flagged for a closer look

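In the moderated F test between the 4 subclones (limma, fit of 5 line means) 7 members passed, 7.95% of the 88. This was near the 8.06% of all tested genes and below the 36.7% of the other genes above 1000. By adjusted p they were Atp5a1 at 0.0026, Atp5b at 0.0029, Atp5md at 0.026, Uqcrh at 0.026, Atp5l at 0.031, Cox6b2 at 0.043 and Ndufaf4 at 0.044. The test is of the difference between subclones itself and does not use the parental arrays as a contrast. Atp5a1 differed from parental by 0.63 in FBB1.7, 0.51 in FBB1.10, 0.32 in FBB1.11 and 0.28 in FBB1.5, and Atp5b by 0.49, 0.48, 0.22 and 0.22 in the same order. Atp5md differed by 0.41 in FBB1.7 and by 0.09 to 0.18 in the other 3, and Atp5l by 0.31 in FBB1.7 and by 0.04 to 0.15 in the other 3. Uqcrh ran from -0.35 in FBB1.7 to -0.05 in FBB1.11. Cox6b2, which was dim, was highest in FBB1.5 at 0.18 and ran from -0.44 to -0.16 in the other 3. Ndufaf4 was lowest in FBB1.5 at -0.26 and ran from -0.00 to 0.20 in the other 3. Of the 10 fits that left out 1 array, Cox6b2 and Ndufaf4 each kept their call in 2. Atp5md and Uqcrh each kept it in 5, Atp5l in 6, and Atp5a1 and Atp5b in 10.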

How the results depend on the processing

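The count of members called with the line as a random block was 0 under every alternative. Without a trend of the variance on intensity the counts were 0 for the mean of the 4 subclones, FBB1.5, FBB1.10, FBB1.11 and the F test, and 3 for FBB1.7. Without an intensity filter they were 5 for the mean, 0 for FBB1.5, 21 for FBB1.7, 0 for FBB1.11 and 2 for the F test. A filter at 100 gave 5 in FBB1.5 and 8 in FBB1.10. Quantile normalization gave 8 for the mean, 0 in FBB1.5, 5 in FBB1.10, 0 in FBB1.11 and 11 for the F test, and median centring 9 for the mean and 1 in FBB1.5. The dimmest probe set gave 7 for the mean, 1 in FBB1.5 and 0 in FBB1.11. With the 2 arrays of highest actin ratio left out, a setting added after the data had been seen, the counts were 2 in FBB1.11, 5 in FBB1.10 and 4 in FBB1.5. The cause of these shifts was not tested.

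Leaving out each array in turn gave 0 calls with the random block, 5 to 13 for the mean, 10 to 33 in FBB1.7, 3 to 6 in FBB1.10, 0 to 2 in FBB1.11, 0 to 3 in FBB1.5 and 2 to 17 for the F test. FBB1.5 fell to 0 without either of its own arrays, FBB1.11 to 0 without its array 1 or either array of FBB1.7, and the F test rose to 17 without either parental array. Calls that stood whichever array was left out were Atp5a1, Atp5b and Atp5g3 for the mean, these with Atp5l, Atp5md, Ndufab1 and Uqcrh in FBB1.7, and Atp5a1 and Atp5b in FBB1.10.

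Over all tested probe sets, deviations of same-numbered arrays correlated at -0.16 to 0.18 between lines. Whether the replicate numbers of the titles pair the arrays in part of the genes was not tested. With the number as a replicate block the counts were 0 with the random block, 17 for the mean, 34 in FBB1.7, 7 in FBB1.10, 2 in FBB1.11, 5 in FBB1.5 and 9 for the F test.

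Of the single members' values, 3 turned their sign: with the dimmest probe set Ndufa10 gave -0.25 for the mean and -0.24 in FBB1.7, and without probe sets shared between transcripts Uqcrq gave -0.14 in FBB1.7. Another 934 stayed on their side of the threshold and 359 lost their call. Changes of 0.5 on the log2 scale were recovered in 57 of 100 simulated cases. These were drawn from all tested probe sets, so the share does not describe the members. The median standard deviation within lines was 0.08 for the members and 0.13 over all tested genes. Changes below 0.5 were not simulated, and members that did not pass may still differ.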
